A study of Chlamydomonas reinhardtii with 16 samples.

Results

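A set of 10 genes of the defence against reactive oxygen was followed in the green alga Chlamydomonas reinhardtii. The genes were taken by function from a list of identifiers, with earlier results of these data known. They are GPX5 (also GPXH, Cre10.g458450), GSTS1 (Cre16.g688550), APX1 (Cre02.g087700), FSD1 (Cre10.g436050), MSD1 (Cre02.g096150), MSD3 (Cre16.g676150), CAT1 (Cre09.g417150), MDAR (Cre17.g712100), VTC2 (Cre13.g588150) and GSH1 (Cre02.g077100). All 10 were found among the 17301 genes of the deposited table, and all 10 were among the 13972 genes that passed the filter on low values and were tested. The names came with the list: the deposited table gives identifiers alone, so the pairing of name and identifier was not tested on these data. RNA was sequenced from the wild-type strain 4A+ and from hmox1, a mutant in heme oxygenase, the enzyme that opens heme to biliverdin. Cells of both strains grew on acetate in darkness in medium with 0.5% methanol, either without further addition or with 0.1 mM biliverdin IXα (BV). They were harvested in the dark or after 30 min of white light of 150 µmol photons per square metre and second. Strain, BV and light make 8 groups with 2 libraries each. One mutant strain stood against 1 wild-type strain, so an effect of the mutated gene cannot be told apart from other differences between the strains. Nothing in the labels says that the libraries of a group are separate cultures, and p-values then measure the spread between libraries, which may be technical.

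Photosynthetic cells make singlet oxygen when excited tetrapyrroles or chlorophyll pass energy to oxygen, and superoxide and hydrogen peroxide when electrons leak to oxygen. Superoxide dismutases turn superoxide into hydrogen peroxide, which catalase, ascorbate peroxidase and the thiol peroxidases then remove. Ascorbate peroxidase spends ascorbate, which is made anew through the VTC2 enzyme and recycled by monodehydroascorbate reductase. Glutathione, whose synthesis starts with the GSH1 enzyme, supplies reducing power and is joined to reactive electrophiles by glutathione S-transferases. In Chlamydomonas GPX5 is widely used as a reporter of singlet oxygen.

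Libraries held 10213385 to 43414139 reads in genes. Values are RPKM, reads scaled by gene length and by the library total, so each is a share of its library, and fewer transcripts of 1 gene cannot be told apart from more RNA of other genes. Differences below are log2 differences of RPKM + 1 with their standard error (SE) from 1 limma fit to all libraries, and a gene is called at an adjusted p under 0.05. The libraries differed in composition. The median tested gene moved by -0.57, -0.35, -0.37 and -0.16 in light (wild type without BV, hmox1 without BV, wild type with BV, hmox1 with BV), by 0.12 between the strains in the dark (hmox1 minus wild type, with or without BV), by 0.29 between them in the light and by 0.13 with BV in the light of each strain. TMM and quantile scaling, tried as alternatives, put the median gene at -0.11 to 0.03 in all comparisons, and they change the split of calls. The share of called genes that were higher ran from 24.9 to 33.3% in the 4 light comparisons, from 48.5 to 53.8% under TMM and from 42.8 to 47.0% under quantile scaling. Between strains it ran from 71.1 to 87.4%, from 48.0 to 56.0% under TMM and from 49.7 to 53.5% under quantile scaling. For BV in the light it was 70.2% in hmox1 and 71.5% in wild type, against 47.1% and 50% under TMM and 51.9% and 54.6% under quantile scaling. The libraries of lit wild type with BV stood furthest apart, with a median SD over genes of 0.12 (log2), where the other 7 groups had 0.053 to 0.0763, so p-values in comparisons with that group tend to be too low.

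The 10 genes covered a wide span of levels. VTC2 reached 855 RPKM and GPX5 645 RPKM, while MSD3 was at 0.515 to 6.79 RPKM, with 7 to 230 reads per library. Between the highest and the lowest library the level differed 57.2-fold for VTC2, 13.2-fold for MSD3, 11.8-fold for GPX5 and 10.2-fold for GSTS1. It differed 4.07-fold for APX1, 2.75-fold for FSD1, 2.63-fold for CAT1 and 2.09-fold for MDAR. On the deposited scaling GSH1 and MSD1 were the steadiest, with 1.69-fold and 1.55-fold between the extremes. These spans were not computed under TMM or quantile scaling.

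**Figure D1:**
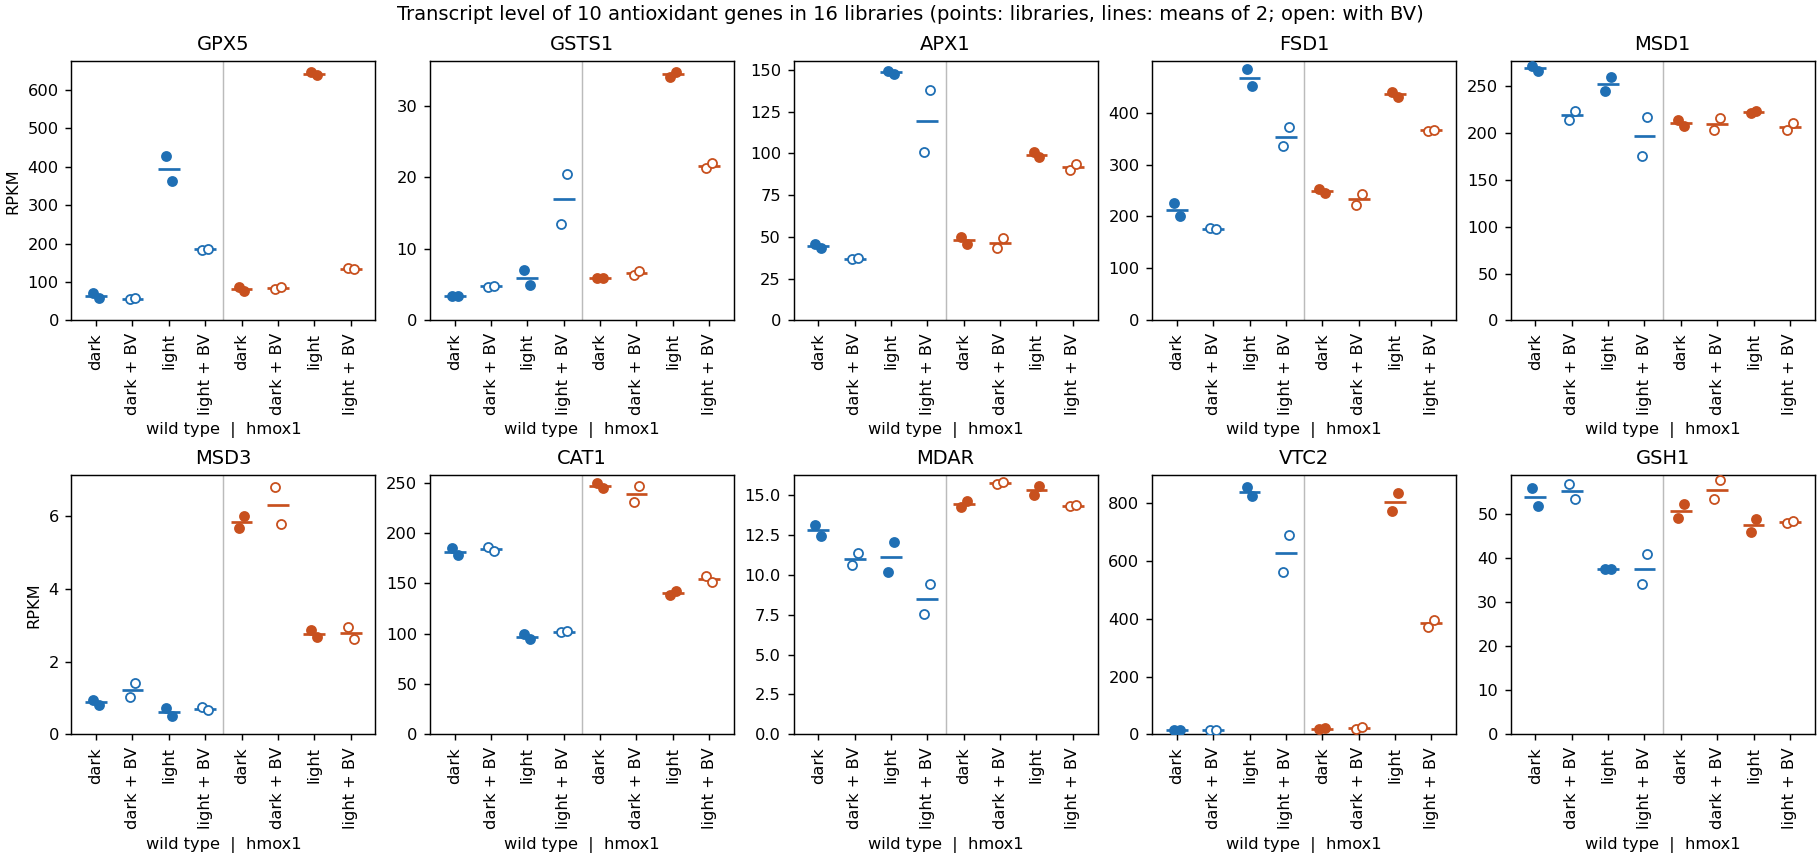
RPKM (vertical axes, each from 0) of the 10 genes in the 16 libraries; points are libraries, lines the means of 2, blue wild type, orange hmox1, open symbols with BV. GPX5 stood highest in lit hmox1 without BV (645 and 639 RPKM), VTC2 was high in every lit group, and MSD3 was higher in each hmox1 group than in any wild-type group.

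Light moved most of these genes, as it moved most genes of the table. In wild type without BV 7 of the 10 were called, 5 higher and 2 lower, where 84.0% of all tested genes were called, 20.9% higher and 63.1% lower. In hmox1 without BV the count was again 7 (5 higher, 2 lower), against 76.5% of all genes, 21.3% higher and 55.2% lower. With BV it was 9 in wild type (5 higher, 4 lower), against 78.9%, 23.4% higher and 55.5% lower. In hmox1 with BV it was 7 (5 higher, 2 lower), against 61.4%, 20.4% higher and 40.9% lower. The 5 higher genes were GPX5, GSTS1, APX1, FSD1 and VTC2 in each of the 4 conditions, and they stayed called higher with TMM and with quantile scaling. CAT1 was called lower in each of the 4 conditions under each scaling, and MSD3 in both hmox1 conditions. The calls of MSD1, MDAR and GSH1, and of MSD3 in wild type, depended on the scaling. In untreated wild type TMM gave 8 higher and 1 lower, and quantile scaling 6 higher and 3 lower. Untreated hmox1 had 8 higher and 2 lower by TMM, against 5 higher and 3 lower by quantile scaling. For BV-fed wild type the counts were 6 higher and 1 lower (TMM), against 6 higher and 4 lower (quantile). For BV-fed hmox1 they were 6 higher and 2 lower (TMM), against 5 higher and 4 lower (quantile). MSD1 was called higher in all 4 conditions with TMM, and lower in both wild-type conditions with quantile scaling. The median log2 difference of the 10 genes was 0.27, 0.44, 0.42 and 0.32 (wild type and hmox1 untreated, then BV-fed), and that of all genes is given above.

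**Figure D2:**
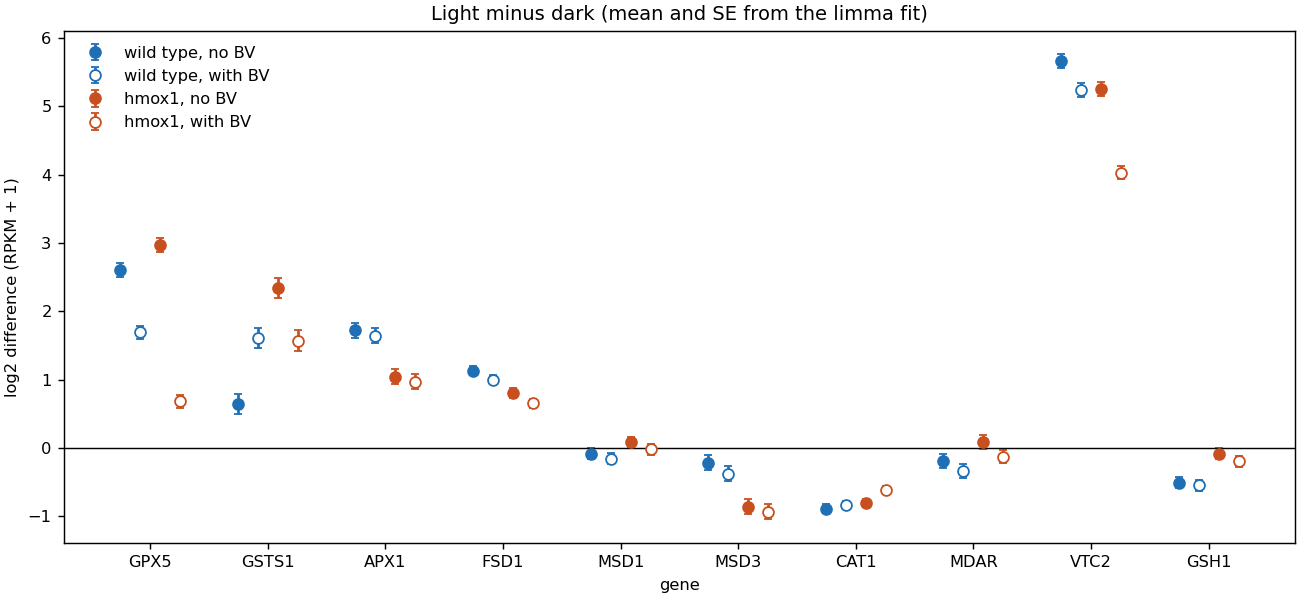
Light minus dark for each gene as log2 difference of RPKM + 1 (vertical axis) with its SE, in wild type (blue) and hmox1 (orange), without (filled) and with BV (open). VTC2 rose by 4.03 to 5.66, and GPX5 went from 2.97 in hmox1 without BV to 0.68 with BV.

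Fewer of these genes were called with BV in the dark than with BV in the light. In dark wild type 2 of the 10 genes were called, both lower (FSD1 and MSD1), against 5.47% of all tested genes, 3.74% higher and 1.72% lower. In dark hmox1 limma called 0, against 0.322% (0.193% higher, 0.129% lower), with 0 at an unadjusted p under 0.05 and 0 by limma-voom. In the light BV called 7 in wild type (1 higher, 6 lower), against 45.6% of all genes, 32.7% higher and 13.0% lower. In lit hmox1 it called 4, all lower, against 37.5%, 26.3% higher and 11.2% lower. The median of the 10 genes was -0.34 in lit wild type and -0.11 in lit hmox1, and that of all tested genes was 0.13 in each. With TMM scaling 7 were called in lit hmox1, all lower, and 8 in lit wild type (1 higher, 7 lower). Quantile scaling gave 5 (1 higher, 4 lower) and 7 (2 higher, 5 lower). For BV in dark wild type TMM called 1 lower (MSD1), and quantile scaling 2 lower (FSD1 and MSD1) and 1 higher (GSTS1). The GSTS1 value there was 0.38 ± 0.15 on the deposited scaling, not called, and 0.43 with quantile scaling.

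Between the strains 7 were called in the dark without BV (6 higher in hmox1, 1 lower), against 35.0% of all genes, 26.5% higher and 8.49% lower. With BV 8 were called in the dark, all higher, against 42.7%, 30.3% higher and 12.3% lower. In the light 7 were called without BV (6 higher, 1 lower), against 61.2%, 53.5% higher and 7.72% lower. In lit cells with BV 8 were called (5 higher, 3 lower), against 61.4%, 52.2% higher and 9.23% lower. These splits depended on the scaling. In the dark without BV 3 were higher (GSTS1, MSD3 and CAT1) and 2 lower (MSD1 and GSH1) with TMM and with quantile scaling alike. In the dark with BV 6 were higher and 1 lower (MSD1) with TMM, and 7 higher and 2 lower (MSD1 and GSH1) with quantile scaling. In the light without BV TMM gave 2 higher (GSTS1 and MSD3) and 4 lower (APX1, FSD1, MSD1 and VTC2), and quantile scaling 5 higher and 1 lower. In the light with BV TMM gave 3 higher (CAT1, MDAR and MSD3) and 5 lower (APX1, FSD1, GPX5, MSD1 and VTC2), and quantile scaling 4 higher and 3 lower. MSD3 was called higher in all 4 comparisons under each scaling. The dark count without BV was 4 without wild-type dark replicate 2. The dark BV count of wild type was 1 without replicate 2 of the untreated libraries and 0 without replicate 1 of them or without either BV library.

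**Figure D3:**
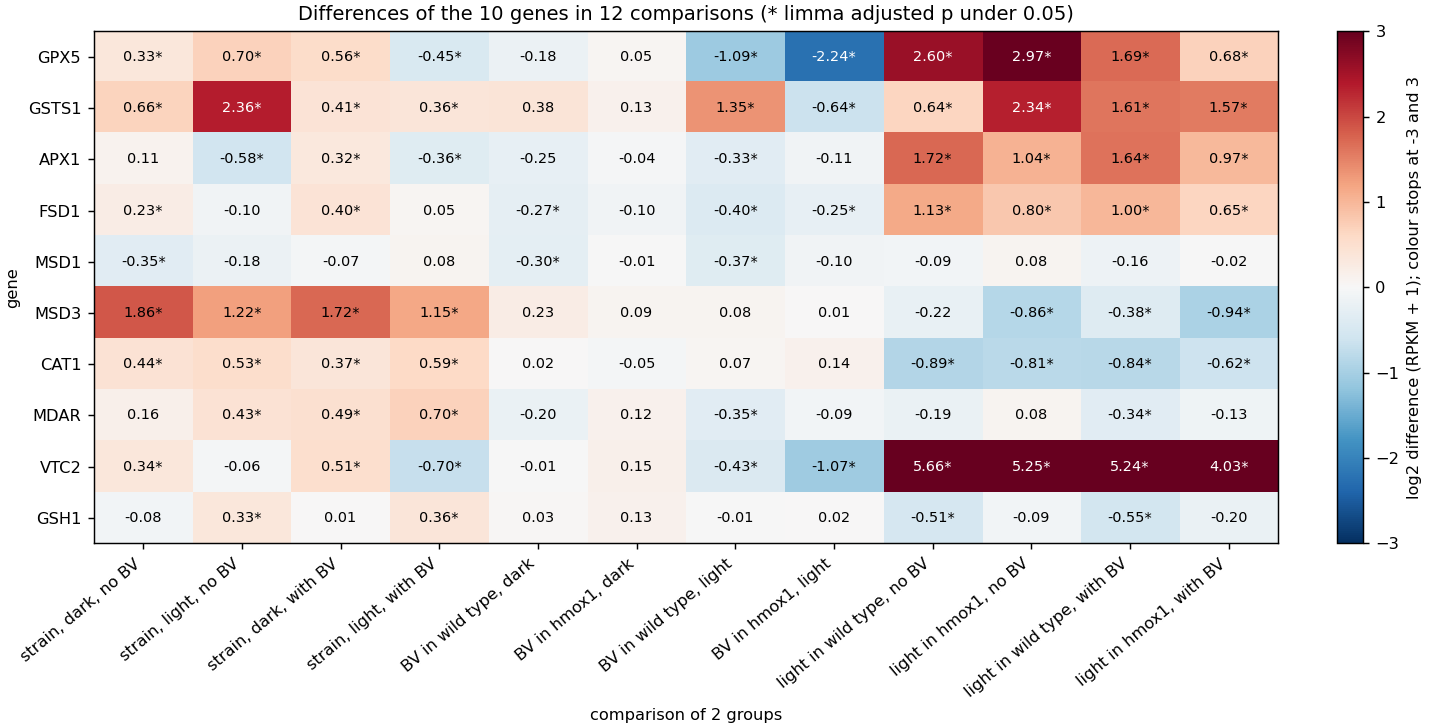
Log2 differences (RPKM + 1) of the 10 genes (rows) in the 12 comparisons of 2 groups (columns); strain is hmox1 minus wild type, BV is with minus without, light is lit minus dark, and an asterisk marks a limma adjusted p under 0.05. The colours saturate below the VTC2 values in light (4.03 to 5.66), which the printed numbers give.

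GPX5 encodes a peroxidase related to glutathione peroxidases that draws its electrons from thioredoxin. In the dark it stood at 71.8 and 57.6 RPKM in wild type, 54.9 and 58.3 in wild type with BV, 86.1 and 76.4 in hmox1, and 81.1 and 86.6 in hmox1 with BV. After light it stood at 428 and 362 RPKM in wild type, 184 and 185 in wild type with BV, 645 and 639 in hmox1, and 135 and 134 in hmox1 with BV. Every lit library lay above every dark library, and the 4 lit groups did not overlap. The mutant held both the highest lit level, without BV, and the lowest, with BV.

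The light rise of GPX5 was 6.11-fold in the wild type (a difference in log2 of 2.60 ± 0.10 SE, limma adjusted p = 4.3e-13) and 7.9-fold in hmox1 (2.97 ± 0.10, limma adjusted p = 1.9e-13). Under BV the rise was 3.26-fold in wild type (1.69 ± 0.10, limma adjusted p = 1.2e-10) and 1.61-fold in hmox1 (0.68 ± 0.10, limma adjusted p = 1.4e-05), the last at 0.40 with quantile scaling. BV lowered lit GPX5 2.14-fold in wild type (-1.09 ± 0.10, limma adjusted p = 1.9e-07) and 4.76-fold in hmox1 (-2.24 ± 0.10, limma adjusted p = 4.8e-11). Of the 13972 tested genes 32 fell further than GPX5 with BV in lit hmox1, and 248 did so in lit wild type. In the dark BV left no called change, with log2 differences of -0.18 ± 0.10 in wild type and 0.05 ± 0.10 in hmox1.

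The BV effect on lit GPX5 was larger in hmox1 by the test of the difference (-1.16 ± 0.14, limma adjusted p = 4.6e-05). Where 8.56% of all tested genes differed between strains in this way (2.45% more positive in hmox1, 6.11% more negative), 3 of the 10 did, all more negative: GPX5, GSTS1 and VTC2. With TMM and quantile scaling 45.8% and 37.8% of such calls over all genes were positive, against 28.6%. Without lit wild type BV replicate 2 the count was 6. BV also changed the light effect of GPX5 within each strain, by -0.91 ± 0.14 in wild type (limma adjusted p = 1.0e-04) and by -2.29 ± 0.14 in hmox1 (limma adjusted p = 8.4e-09). In these tests of light by BV 3 of the 10 genes were called in wild type (1 positive, 2 negative), against 31.4% of all genes (22.3% positive, 9.17% negative). In hmox1 3 were called, all negative, against 22.7% (15.9% positive, 6.83% negative). They were GPX5, GSTS1 and VTC2 in both strains. The share of positive calls over all genes, 70.8% and 69.9%, came to 48.7% and 44.0% under TMM scaling and to 55.2% and 49.1% under quantile scaling. With TMM scaling the count was 6 in each strain.

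Between the strains GPX5 was higher in hmox1 in the dark (1.26-fold, log2 difference 0.33 ± 0.10, limma adjusted p = 0.014) and in the light without BV (1.62-fold, 0.70 ± 0.10, limma adjusted p = 1.7e-05). It was higher in the dark with BV (1.48-fold, 0.56 ± 0.10, limma adjusted p = 2.1e-04) and lower in the light with BV (1.37-fold lower, -0.45 ± 0.10, limma adjusted p = 8.6e-04). The first of these calls was lost without wild-type dark replicate 2 (0.17, limma adjusted p = 0.22) or hmox1 dark replicate 1 (0.25, adjusted p = 0.14). It was also lost with TMM (0.20, adjusted p = 0.21), with quantile scaling (0.19, adjusted p = 0.13) and with only the groups compared (adjusted p = 0.062). With TMM the lit difference without BV was 0.25 (limma adjusted p = 0.078). The other 2 calls held under both scalings, with 0.36 for the dark difference with BV under quantile scaling and -0.84 for the lit difference with BV under TMM.

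GSTS1 encodes a glutathione S-transferase. It was a low gene in the dark, at 3.39 and 3.43 RPKM in wild type (65 and 63 reads), 4.63 and 4.87 in wild type with BV, 5.96 and 5.99 in hmox1, and 6.33 and 6.92 in hmox1 with BV. In the light it stood at 6.98 and 4.93 RPKM in wild type (186 and 56 reads), 13.4 and 20.5 in wild type with BV, 34.1 and 34.7 in hmox1, and 21.3 and 22.0 in hmox1 with BV. The lit wild-type libraries without BV overlapped the dark hmox1 libraries, both those without and those with BV. Every lit library of the other 3 groups lay above all dark libraries. The highest group, lit hmox1 without BV, was the same as for GPX5, and the lowest lit group was untreated wild type.

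Light raised GSTS1 1.75-fold in the wild type (a difference in log2 of 0.64 ± 0.15 SE, limma adjusted p = 0.001) and 5.76-fold in hmox1 (2.34 ± 0.15, limma adjusted p = 1.5e-09). The light effect differed between the strains by 1.70 ± 0.21 (limma adjusted p = 4.8e-05). In lit cells without BV hmox1 exceeded wild type 5.77-fold (2.36 ± 0.15, limma adjusted p = 9.3e-09), and 37 of the 13972 tested genes had a larger positive difference. The wild-type light effect was 1.27 with TMM and 1.16 with quantile scaling.

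BV moved lit GSTS1 in opposite directions in the strains. It rose 2.85-fold in the wild type (a difference in log2 of 1.35 ± 0.15, limma adjusted p = 3.5e-06) and fell 1.59-fold in hmox1 (-0.64 ± 0.15, limma adjusted p = 0.0038). Both calls held under either scaling. The test of the difference gave -2.00 ± 0.21 (limma adjusted p = 2.4e-05). On the deposited scaling and with TMM, GSTS1 was the 1 member called higher with BV in lit wild type. With quantile scaling CAT1 was called higher too (0.18). With BV the strains stood closer, at 16.95 ± 4.98 RPKM in wild type and 21.6 ± 0.47 in hmox1 (SD, n = 2 each). That difference of 0.36 ± 0.15 (limma adjusted p = 0.049) was lost under 10 of 12 alternatives and was -0.01 with TMM scaling, the other side of 0. Without replicate 2 of lit wild type with BV it was 0.65 and kept the call. Without replicate 1 of that group it was 0.08 (limma adjusted p = 0.65), without hmox1 light BV replicate 1 it was 0.38 (adjusted p = 0.12) and without replicate 2 0.34 (adjusted p = 0.15).

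The light effect of GSTS1 was larger with BV in wild type (by 0.97 ± 0.21, limma adjusted p = 0.0028; 0.64 with quantile scaling) and smaller with BV in hmox1 (-0.77 ± 0.21, limma adjusted p = 0.018). The second call was lost when 1 of 6 of its 8 libraries was left out, with values of -0.72 to -0.79 and limma adjusted p = 0.05 to 0.063. These were both untreated dark and both untreated lit hmox1 libraries, replicate 2 of dark hmox1 with BV and replicate 1 of lit hmox1 with BV. In the dark GSTS1 was higher in hmox1 without BV (0.66 ± 0.15, limma adjusted p = 0.0031). With BV the dark difference was 0.41 ± 0.15 (limma adjusted p = 0.042), and this call was lost with TMM scaling (0.30), with limma-voom, with no filter and without any 1 of its 4 libraries, with 0.35 to 0.46 and limma adjusted p = 0.079 to 0.19.

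**Figure D4:**
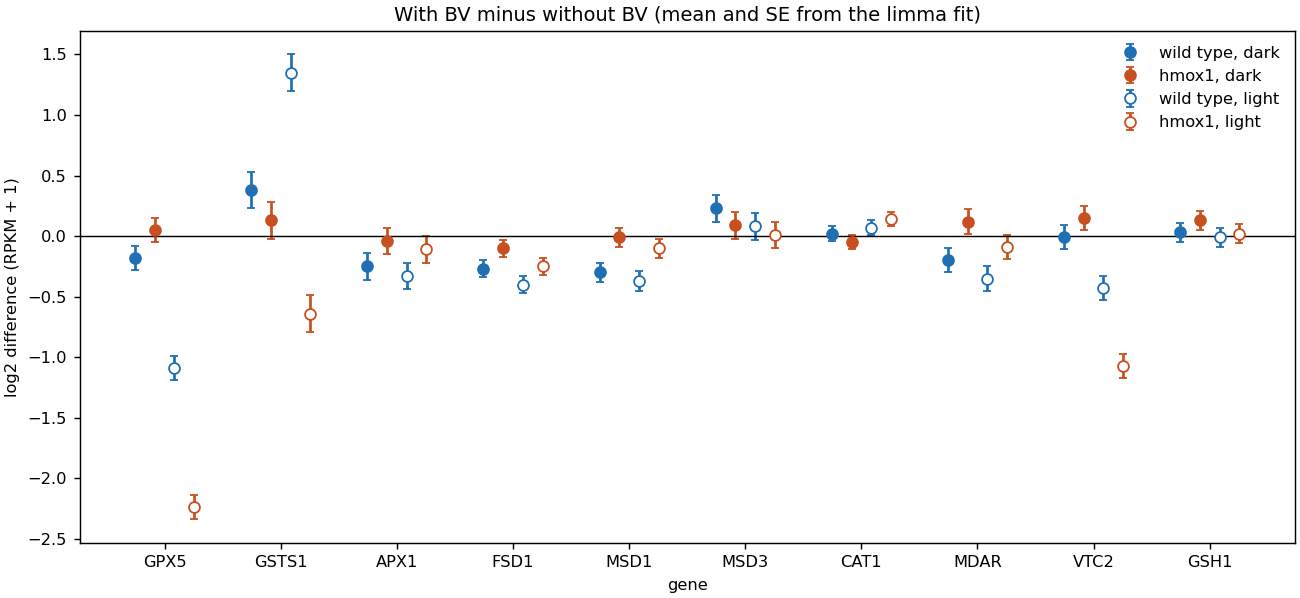
With BV minus without BV for each gene as log2 difference of RPKM + 1 (vertical axis) with its SE, in wild type (blue) and hmox1 (orange), in the dark (filled) and after light (open). In lit cells GPX5 was at -1.09 and -2.24, VTC2 at -0.43 and -1.07, and GSTS1 at 1.35 in wild type and -0.64 in hmox1.

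VTC2 encodes GDP-L-galactose phosphorylase, which takes the committed step of ascorbate synthesis in plants and green algae. Its dark libraries lay between 14.9 and 24.6 RPKM. They were at 16.4 and 14.95 RPKM in wild type, 15.1 and 15.9 in wild type with BV, 19.1 and 21.2 in hmox1, and 20.5 and 24.6 in hmox1 with BV. After light it stood at 855 and 823 RPKM in wild type, 562 and 691 in wild type with BV, 773 and 837 in hmox1, and 371 and 397 in hmox1 with BV. The lit and dark libraries were far apart, the untreated lit strains overlapped, and hmox1 with BV was the lowest lit group.

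The light rise of VTC2 was 53.6-fold in the wild type (a difference in log2 of 5.66 ± 0.10 SE, limma adjusted p = 1.1e-16) and 39.9-fold in hmox1 (5.25 ± 0.10, limma adjusted p = 7.7e-16). Under BV the rise was 40.4-fold in wild type (5.24 ± 0.10, limma adjusted p = 1.3e-15) and 17-fold in hmox1 (4.03 ± 0.10, limma adjusted p = 1.3e-13). Of the 13972 tested genes 19, 13, 9 and 10 rose further in these 4 comparisons, in the order given.

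BV lowered lit VTC2 1.34-fold in the wild type (a difference in log2 of -0.43 ± 0.10, limma adjusted p = 0.0023) and 2.1-fold in hmox1 (-1.07 ± 0.10, limma adjusted p = 5.6e-07), and both calls held under either scaling. The wild-type value was -0.28, and called, both with quantile scaling and without lit wild type BV replicate 1. The effect was larger in hmox1 by -0.64 ± 0.14 (limma adjusted p = 0.0098), a call lost without hmox1 light replicate 2 (-0.58, adjusted p = 0.051). In the dark BV gave -0.01 ± 0.10 in wild type and 0.15 ± 0.10 in hmox1. Lit hmox1 with BV was 1.63-fold below lit wild type with BV (-0.70 ± 0.10, limma adjusted p = 2.8e-05), and at -1.09 with TMM. Without BV the difference between lit strains was -0.06 ± 0.10 and not called (limma adjusted p = 0.61), but with TMM scaling the value was -0.51 and called. In the dark VTC2 was higher in hmox1 by 0.34 ± 0.10 (limma adjusted p = 0.013) and with BV by 0.51 ± 0.10 (limma adjusted p = 6.4e-04). The first of these was lost with TMM and quantile scaling, without wild-type dark replicate 2 (0.28, adjusted p = 0.11) and without hmox1 dark replicate 2 (0.27, adjusted p = 0.12).

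The light effect of VTC2 was smaller with BV in hmox1 (-1.22 ± 0.14, limma adjusted p = 1.5e-05). It was also smaller in hmox1 than in wild type with BV (-1.21 ± 0.14, limma adjusted p = 1.3e-05). The corresponding values of -0.41 ± 0.14 for BV in wild type (limma adjusted p = 0.035) and -0.41 ± 0.14 for the strain without BV (limma adjusted p = 0.04) were each lost without 6 of the 8 libraries taken singly, at adjusted p of 0.056 to 0.12 and of 0.056 to 0.13. With TMM they were -0.64 and -0.73, both called. Both were lost with quantile scaling, with no filter and with no mean trend, and the one for BV in wild type also with only the groups compared. For BV in wild type only dark replicate 1 and lit BV replicate 2 could be left out with the call kept, and for the strain dark replicate 1 of wild type and of hmox1.

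MDAR, the monodehydroascorbate reductase that returns ascorbate to use, lay at 7.55 to 15.8 RPKM, with no called rise in light on the deposited scaling. The wild-type libraries were at 13.1 and 12.4 RPKM in the dark, 10.6 and 11.3 in the dark with BV, 10.1 and 12.03 in the light, and 7.55 and 9.39 in the light with BV. The hmox1 libraries lay between 14.2 and 15.8 RPKM in all 4 conditions, above every wild-type library. MDAR was higher in hmox1 in the dark with BV (1.44-fold, log2 difference 0.49 ± 0.10, limma adjusted p = 8.7e-04) and in the light with BV (1.69-fold, 0.70 ± 0.10, limma adjusted p = 2.5e-05), and under both scalings too, where the latter was 0.34 (TMM) and 0.45 (quantile). In the light without BV the difference was 0.43 ± 0.10 (limma adjusted p = 0.0014), but 0.01 with TMM and 0.15 with quantile scaling, neither called. In the dark without BV it was 0.16 ± 0.10 (limma adjusted p = 0.22) and not called. In wild type with BV light gave -0.34 ± 0.10 (limma adjusted p = 0.0048), about the shift of the median gene, and 0.13 with TMM scaling. Without lit wild type BV replicate 1 that value was -0.20 (limma adjusted p = 0.075). Without BV light gave -0.19 in wild type and 0.08 in hmox1, not called, but 0.49 and 0.46 with TMM scaling, both called. BV gave -0.35 ± 0.10 in lit wild type (limma adjusted p = 0.008), a call lost with only the groups compared. It was also lost without untreated lit replicate 2 (-0.24) or BV replicate 1 (-0.21). With TMM the value was -0.56. In lit hmox1 BV gave -0.09 ± 0.10, not called, but -0.23 and called with TMM. The test of the difference between the strains gave 0.27 ± 0.14, not called.

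APX1, an ascorbate peroxidase that reduces hydrogen peroxide, stood at 45.5 and 43.3 RPKM in dark wild type and at 149.7 and 147.6 after light. With BV the wild-type libraries were at 36.8 and 37.3 RPKM in the dark and at 100.6 and 138 in the light. In hmox1 they were at 50.3 and 45.6 in the dark and at 100.6 and 97.9 in the light, and with BV at 43.5 and 49.4 and at 90.2 and 93.6. All lit libraries were above all dark ones, and untreated lit wild type was above all the rest. Light raised APX1 3.35-fold in the wild type (a difference in log2 of 1.72 ± 0.11, limma adjusted p = 3.5e-10) and 2.07-fold in hmox1 (1.04 ± 0.11, limma adjusted p = 2.9e-07). The rise was smaller in hmox1 by -0.68 ± 0.15 without BV (limma adjusted p = 0.0039) and by -0.67 ± 0.15 with BV (limma adjusted p = 0.0033). Both of these held with TMM and quantile scaling and without any 1 library.

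Lit APX1 was 1.5-fold lower in hmox1 than in wild type without BV (log2 difference -0.58 ± 0.11, limma adjusted p = 3.3e-04). Lit BV-fed hmox1 was 1.3-fold below lit BV-fed wild type (-0.36 ± 0.11, limma adjusted p = 0.01), a call lost without lit wild type BV replicate 2 (-0.13, adjusted p = 0.18) or lit hmox1 BV replicate 1 (-0.33, adjusted p = 0.062). Without lit wild type BV replicate 1 it was -0.58. With TMM scaling the differences were -1.03 without BV and -0.75 with BV. BV gave -0.33 ± 0.11 in lit wild type (limma adjusted p = 0.02) and -0.11 ± 0.11 in lit hmox1 (adjusted p = 0.44). The test of the difference between these gave 0.22 ± 0.15 (limma adjusted p = 0.43). With TMM the hmox1 value was -0.26 and called. The wild-type call was lost without BV replicate 1 (-0.11) and without untreated replicate 1 (-0.32) or replicate 2 (-0.34). It was also lost with quantile scaling (-0.22) and with only the groups compared. Without BV replicate 2 the value was -0.56, and with TMM -0.54. In the dark with BV APX1 was higher in hmox1 by 0.32 ± 0.11 (limma adjusted p = 0.029), lost with both scalings, without wild-type BV replicate 1 (0.31, adjusted p = 0.12) or 2 (0.33, adjusted p = 0.085) and without hmox1 BV replicate 2 (0.23, adjusted p = 0.22).

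CAT1, a catalase, went down in light. Its libraries were at 185 and 178 RPKM in dark wild type, 99.4 and 95.1 in lit wild type, 249.7 and 245 in dark hmox1, and 138 and 143 in lit hmox1. With BV they were at 186 and 182 in dark and 102 and 103 in lit wild type, and at 231 and 247 in dark and 158 and 151 in lit hmox1. Every hmox1 library exceeded every wild-type library of the same light condition. Light lowered CAT1 1.87-fold in the wild type (a difference in log2 of -0.89 ± 0.06, limma adjusted p = 6.4e-10) and 1.76-fold in hmox1 (-0.81 ± 0.06, limma adjusted p = 4.2e-09), and with BV by -0.84 ± 0.06 and -0.62 ± 0.06. These 4 falls were called with TMM scaling too, at -0.16 to -0.40, and lay 0.33 to 0.47 below the median gene.

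CAT1 was higher in hmox1 in all 4 conditions. It was 1.36-fold higher in the dark (log2 difference 0.44 ± 0.06, limma adjusted p = 2.9e-05) and 1.3-fold with BV (0.37 ± 0.06, limma adjusted p = 1.2e-04). In the light it was 1.44-fold higher (0.53 ± 0.06, limma adjusted p = 2.9e-06) and 1.51-fold with BV (0.59 ± 0.06, limma adjusted p = 1.1e-06). The lit difference without BV was 0.08 and not called with TMM scaling, and the other 3 were called under both scalings, at 0.20 in the light with BV (TMM) and at 0.26 and 0.15 in the dark without and with BV (quantile). BV gave 0.02, -0.05, 0.07 and 0.14 (wild type and hmox1 in the dark, wild type and hmox1 in the light), none of them called, but the 2 lit values were called with quantile scaling (0.18 and 0.17).

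The superoxide dismutases differed among themselves. FSD1, the iron enzyme, rose in light. It stood at 225 and 202 RPKM in dark and 484 and 450.3 in lit wild type, and at 254 and 245 in dark and 440 and 431 in lit hmox1. With BV it stood at 177 and 176 in dark and 336 and 371 in lit wild type, and at 222.5 and 243 in dark and 365 and 367 in lit hmox1. No lit library overlapped a dark one. The rise was 2.19-fold in the wild type (a difference in log2 of 1.13 ± 0.07, limma adjusted p = 2.7e-10) and 1.75-fold in hmox1 (0.80 ± 0.07, limma adjusted p = 3.5e-08). With TMM these differences were 1.86 and 1.21. Between lit strains FSD1 gave -0.10 without and 0.05 with BV, not called, but -0.55 and -0.34 with TMM, both called.

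The light rise of FSD1 was smaller in hmox1 by -0.33 ± 0.10 without BV (limma adjusted p = 0.023) and by -0.34 ± 0.10 with BV (limma adjusted p = 0.014). The first was lost with quantile scaling, with no mean trend and without wild-type dark replicate 2 (-0.25) or wild-type light replicate 1 (-0.27). It was also lost without hmox1 dark replicate 1 (-0.30), hmox1 light replicate 1 (-0.34) or hmox1 light replicate 2 (-0.31). With TMM the values were -0.65 and -0.61. The second was lost without hmox1 dark BV replicate 2 (-0.28, adjusted p = 0.065). BV lowered lit FSD1 1.32-fold in wild type (-0.40 ± 0.07, limma adjusted p = 2.3e-04), with -0.61 under TMM and -0.17 under quantile scaling. In lit hmox1 the value was -0.25 ± 0.07 (limma adjusted p = 0.012), lost without untreated replicate 1 (-0.23, adjusted p = 0.082) or BV replicate 1 (-0.24, adjusted p = 0.066) or 2 (-0.25, adjusted p = 0.054), and -0.40 with TMM. In dark wild type it was -0.27 ± 0.07 (limma adjusted p = 0.035), a call lost with TMM and with no mean trend. It was also lost without untreated replicate 1 (-0.19) or BV replicate 1 (-0.28) or 2 (-0.26). In the dark FSD1 was higher in hmox1 by 0.40 ± 0.07 with BV (limma adjusted p = 3.0e-04; 0.17 with quantile scaling) and by 0.23 ± 0.07 without (limma adjusted p = 0.021). The latter was lost under both scalings, with no mean trend and without wild-type dark replicate 2 (0.15) or hmox1 dark replicate 1 (0.20).

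MSD1, a manganese superoxide dismutase, was high throughout and, on the deposited scaling, the steadiest of the 10 genes. Its libraries were at 272 and 267 RPKM in dark wild type, 214 and 224 in the dark with BV, 246 and 259.7 in the light, and 176 and 217 in the light with BV. The hmox1 libraries lay between 203 and 224 RPKM in all 4 conditions. Light gave no call in any condition, with log2 differences of -0.16 to 0.08. The sign in wild type depended on the scaling: without BV it was 0.64 under TMM and -0.40 under quantile scaling, both called, and under TMM the hmox1 values were 0.49 and 0.23, called as well. In the dark without BV hmox1 was 1.28-fold lower (-0.35 ± 0.08, limma adjusted p = 0.0025), a call that held under both scalings, at -0.53 with quantile scaling. The other strain differences of MSD1 were -0.18 (light without BV), -0.07 (dark with BV) and 0.08 (light with BV), not called. With TMM they were -0.63, -0.19 and -0.31, all called lower, and with quantile scaling the dark value with BV was -0.29 and called. BV lowered MSD1 1.29-fold in lit wild type (-0.37 ± 0.08, limma adjusted p = 0.0012). It gave -0.22 there without BV replicate 1, -0.58 with TMM and -0.23 with quantile scaling. In lit hmox1 BV gave -0.10 ± 0.08, not called, but -0.25 and called with TMM. The test of the difference between the strains gave 0.26 ± 0.11, not called, and 0.33 with TMM, called. In dark wild type BV gave -0.30 ± 0.08 (limma adjusted p = 0.037), a call lost with no mean trend and without any 1 of the 4 libraries (-0.27 to -0.33).

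MSD3, a second manganese superoxide dismutase, known in Chlamydomonas for its induction when manganese is scarce, was the lowest of the 10 genes and set the strains apart. In wild type it was at 0.957 and 0.820 RPKM in the dark (22 and 18 reads), 1.04 and 1.40 in the dark with BV, 0.721 and 0.515 in the light (23 and 7 reads), and 0.750 and 0.665 in the light with BV. In hmox1 it was at 5.66 and 5.998 RPKM in the dark (107 and 230 reads), 6.79 and 5.78 in the dark with BV, 2.85 and 2.68 in the light, and 2.96 and 2.63 in the light with BV. All 8 hmox1 libraries lay above all 8 wild-type libraries. For 7 reads the exact 95% Poisson interval runs from 0.207 to 1.06 RPKM, and such intervals cover counting error only.

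MSD3 was 6.56-fold higher in hmox1 in the dark (log2 difference 1.86 ± 0.11 SE, limma adjusted p = 1.8e-09) and 4.48-fold in the light (1.22 ± 0.11, limma adjusted p = 2.1e-07). BV-fed hmox1 was 5.15-fold above BV-fed wild type in the dark (1.72 ± 0.11, limma adjusted p = 4.7e-09) and 3.95-fold in the light (1.15 ± 0.11, limma adjusted p = 5.3e-07). The folds are ratios of mean RPKM, and at these low levels the added 1 makes the log2 differences smaller than the folds. With a pseudocount of 0.1 the lit differences were 2.01 without BV and 1.84 with BV. On the scale of RPKM + 1, 80 of the 13972 tested genes had a larger positive difference in the dark without BV and 76 with BV. All 4 calls held under each alternative tried, and the lit differences ranged with the scale from 0.70 and 0.71 (quantile) to 1.95 and 2.04 (limma-voom). BV itself gave no call on MSD3, with 0.01 to 0.23. In hmox1 light lowered MSD3 2.11-fold (-0.86 ± 0.11, limma adjusted p = 2.5e-06) and with BV 2.25-fold (-0.94 ± 0.11, limma adjusted p = 1.8e-06), also under both scalings, where the former was -0.52 (TMM) and -0.51 (quantile).

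In wild type, where MSD3 had 7 to 62 reads per library, the sign of the light effect depended on the scaling. It was -0.22 ± 0.11 without BV (limma adjusted p = 0.068), but 0.59 and called higher with quantile scaling. With BV it was -0.38 ± 0.11 (limma adjusted p = 0.0052), -0.26 (adjusted p = 0.092) without dark BV replicate 2, -0.13 with TMM, not called, and 0.29 with quantile scaling. The strain difference in the light effect, -0.63 ± 0.16 without BV (limma adjusted p = 0.0065) and -0.57 ± 0.16 with BV (limma adjusted p = 0.01), was lost with a pseudocount of 0.1 (-0.58 and -0.44) and with limma-voom (-0.65 and -0.37). With quantile scaling it was -1.09 and -1.07. With BV it was also lost without replicate 1 of dark wild type with BV (-0.45, adjusted p = 0.06) or of dark hmox1 with BV (-0.46, adjusted p = 0.051).

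GSH1 encodes γ-glutamylcysteine synthetase, the first enzyme of glutathione synthesis. It stood at 55.9 and 51.8 RPKM in dark and 37.57 and 37.63 in lit wild type, and with BV at 56.8 and 53.4 and at 34.1 and 40.9. In hmox1 it stood at 49.2 and 52.3 in the dark and 46.0 and 48.9 in the light, and with BV at 53.4 and 57.6 and at 47.9 and 48.4. The lit wild-type libraries were the lowest, and no other library overlapped them. Light gave -0.51 ± 0.08 in wild type (limma adjusted p = 3.5e-05), which with TMM scaling turned to 0.22, and -0.55 ± 0.08 with BV (limma adjusted p = 1.8e-05), which was -0.04 with TMM. With quantile scaling the values were -0.83 and -0.88. Both lay near the shift of the median gene, at 0.06 and -0.17 from it.

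In hmox1 the light effect of GSH1 was -0.09 ± 0.08 without and -0.20 ± 0.08 with BV, neither called. With TMM the value without BV was 0.31 and with quantile scaling -0.35, both called. The value with BV was 0.04 with TMM, not called, and -0.43 with quantile scaling, called lower. The strain difference of the light effect was 0.41 ± 0.12 without BV (limma adjusted p = 0.017) and 0.35 ± 0.12 with BV (limma adjusted p = 0.031), and 0.09 and 0.08 with TMM scaling. Without BV the call was lost without wild-type dark replicate 1 (0.36, adjusted p = 0.066), hmox1 dark replicate 1 (0.37, adjusted p = 0.065) or hmox1 light replicate 2 (0.37, adjusted p = 0.074). With BV it was lost without replicate 1 of the BV-fed libraries of dark wild type (0.31), lit wild type (0.22) or dark hmox1 (0.29). It was also lost without replicate 1 (0.36) or 2 (0.34) of BV-fed lit hmox1, and with only the groups compared. Lit GSH1 was higher in hmox1 by 0.33 ± 0.08 without BV (limma adjusted p = 0.0036) and 0.36 ± 0.08 with BV (limma adjusted p = 0.0019), but -0.12 and -0.03 with TMM scaling. The second was 0.23 without lit wild type BV replicate 1. In the dark the strain difference was -0.08 without and 0.01 with BV, not called. It was -0.21 with TMM and -0.27 with quantile scaling without BV, and -0.21 with quantile scaling with BV, each called lower. BV gave -0.01 to 0.13, none called, but -0.21 in lit wild type with TMM, which was called lower.

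The light effect differed between strains in 7 of the 10 genes without BV, against 31.0% of all tested genes (23.7% more positive in hmox1, 7.27% more negative), and in 6 with BV (1 more positive, 5 more negative), against 38.7% (27.9% and 10.9%). Over all genes the share of positive calls was 76.5% and 71.9%, turning to 41.9% and 45.1% under TMM scaling and to 51.4% and 47.4% under quantile scaling. Without BV 3 were more positive in hmox1 (GPX5, GSTS1 and GSH1) and 4 more negative (APX1, FSD1, MSD3 and VTC2). That split was 1 to 4 under TMM and 5 to 2 under quantile scaling. In BV-fed cells it was 0 to 5 under TMM and 2 to 5 under quantile scaling. The GPX5 value, 0.37 ± 0.14 (limma adjusted p = 0.048), was 0.05 and not called with TMM and 0.66 with quantile scaling. The call was lost without wild-type dark replicate 1 (0.22) or wild-type light replicate 2 (0.25). It was also lost without hmox1 dark replicate 2 (0.29), or hmox1 light replicate 1 (0.37) or 2 (0.38). With no filter, no mean trend or only the groups compared it was lost too (limma adjusted p = 0.067, 0.078 and 0.12). With BV GPX5 had a smaller light effect in hmox1, by -1.01 ± 0.14 (limma adjusted p = 4.7e-05), and GSTS1 differed by -0.04 ± 0.21. The count without BV was 4 and 3 without replicate 1 and 2 of lit hmox1. The BV effect in the dark differed between strains in 0 of the 10 genes by limma, against 0.938% (0.0644% more positive, 0.873% more negative), with 2 at an unadjusted p under 0.05 (MSD1 and MDAR) and 0 by limma-voom.

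Over the 8 group means of log2(RPKM + 1), the pattern of GPX5 was closest to that of Cre10.g465950 (Pearson r = 0.989), which ranged from 11.9 RPKM in dark wild type with BV to 31.9 in lit hmox1 without BV. Cre17.g732850 followed (r = 0.988), with 8.82 RPKM in dark wild type with BV and 35.2 in lit hmox1 without BV. Closest to GSTS1 were Cre01.g036000 (r = 0.988), which stood at 2.07 RPKM in dark wild type and 16.4 in lit hmox1 without BV, and Cre32.g781150 (r = 0.975), with 4.08 and 6.52 RPKM. Among the members GPX5 correlated with FSD1 at 0.92, with VTC2 at 0.90, with APX1 at 0.85 and with GSTS1 at 0.68. The other values were 0.04 with MSD1, -0.02 with MDAR, -0.19 with MSD3, -0.67 with GSH1 and -0.70 with CAT1. These values describe 8 means that share the same libraries and the same light step.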

How the data were processed

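RNA-seq of 16 libraries was deposited as 1 table of RPKM per gene. The authors' header does not name the unit, so RPKM was inferred from the deposited values, which step by whole reads. Bowtie was used, per the submitters' processing notes; its version, genome build, annotation, counter and strand setting: not given in the sources used here. Reads were recovered as whole multiples (tolerance 0.1 reads) for 16851 of 16852 genes above 0, and 99.84% of values lay within 0.01 reads; the largest distance was 0.0852. Groups were taken from sample titles. All 10 members were matched by locus tag to RefSeq (assembly Chlamydomonas_reinhardtii_v5.5), where 0 of them overlap another gene; no coordinates are printed, since the files' build is not given.

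log2(RPKM + 1) on the scaling of the deposited table was fitted with limma 3.58.1 (R 4.3.3; 1 mean per group, 8 residual degrees of freedom, mean trend, robust moderation) over the 13972 genes that reached 1 RPKM in 2 libraries or more. p-values were Benjamini-Hochberg adjusted within each of 18 comparisons, 12 of 2 groups and 6 of effects. Fold values are ratios of mean RPKM. Alternatives were a pseudocount of 0.1, no filter, TMM and quantile scaling, only the groups compared, no mean trend, a replicate block, limma-voom on recovered reads, and each library left out. Members, comparisons and lists were chosen with earlier results of these data known. All members are named; the genes of most similar pattern are the 2 with the highest correlation to GPX5 and to GSTS1. Lists of further antioxidant genes by product name or protein similarity were planned and not used here, as the reference tables carry neither. No table pairs an identifier with the heme oxygenase gene, so the strain labels were not checked by its level.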

Additional observations from a re-analysis of the deposited data

Results flagged for a closer look

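With 2 libraries per group no library could be tested as an outlier. The values below were singled out because an effect differed between hmox1 and wild type by the test of the difference (log2 scale, hmox1 minus wild type, limma). For the BV effect in the light these were GSTS1 (-2.00 ± 0.21 SE), GPX5 (-1.16 ± 0.14) and VTC2 (-0.64 ± 0.14). GSTS1 is the one whose BV effect has opposite signs in the strains. For the light effect without BV they were GSTS1 (1.70), GSH1 (0.41), GPX5 (0.37), FSD1 (-0.33), VTC2 (-0.41), MSD3 (-0.63) and APX1 (-0.68). For the light effect with BV they were GSH1 (0.35), FSD1 (-0.34), MSD3 (-0.57), APX1 (-0.67), GPX5 (-1.01) and VTC2 (-1.21). The median tested gene differed by 0.19 and 0.20 in the 2 light comparisons. Causes were not tested.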

How the results depend on the processing

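Of the 95 calls of a member in a comparison, 63 kept direction and call under each alternative. The 95 are calls on the deposited scaling, so calls gained under an alternative, such as those of MSD1 in light with TMM, are not counted here. Under TMM scaling 5 calls changed sign: GSH1 in light in wild type without BV (0.22), GSH1 between lit strains without (-0.12) and with BV (-0.03), GSTS1 between lit strains with BV (-0.01) and MDAR in light in wild type with BV (0.13). With quantile scaling MSD3 in light in wild type with BV did (0.29). The cause of each change was not tested. Counts of called members moved by over 1.5 times with TMM for BV in lit hmox1 (7 against 4), BV in dark wild type (1 against 2) and light by BV (6 against 3 in wild type, 6 against 3 in hmox1). BV in dark wild type had 0 without the mean trend and 4 with only the groups compared, and light by strain without BV had 4 without the mean trend. With 1 library left out, the counts were 0 to 1 for BV in dark wild type (2 with all), 3 to 5 for light by strain without BV (7), 4 to 7 for strain in the dark without BV (7) and 2 to 6 for BV by strain in the light (3, with 6 without lit wild type BV replicate 2). A group with a library left out holds 1, assumed to vary like the other groups. Replicate 1 deviations correlated between groups at -0.152 to 0.272 (median 0.0698), above 0.1 in 10 of 28 pairs and below -0.1 in 1. These values lean to the positive side, so they cannot exclude a weak pairing by replicate number. With a replicate block 94 of the 95 calls were kept, and GSTS1 between lit strains with BV (0.36) had a limma adjusted p = 0.057. Depth limits MSD3 most, with 7 reads in 1 library.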
